A study of Mus musculus with 10 samples.

Results

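The core circadian clock was followed at the transcript level in cultured mouse cells of the renal proximal tubule, the nephron segment that takes back most of what the glomerulus filters. The set was 10 genes of the 46509 in each all-gene table: the activator Arntl, the repressors Ciart, Per1, Per2, Per3, Cry1, Cry2, Nr1d1 and Nr1d2, and the output gene Dbp. They were chosen by name, after ratios of the same libraries, that of Ciart among them, had been seen, so every ratio below is a description and carries no test. All 10 were found, each in 1 row, and all 10 reached an FPKM (fragments per kb of transcript, scaled to sequencing depth) of 1 in each of libraries 7 to 10, which 12352 genes reached in at least 1 of them. None of the 10 appeared in the lists of selected genes that cover libraries 1 to 6, which hold 1852 and 1637 genes.

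The clock is a feedback loop found in nearly every cell. ARNTL (also called BMAL1) pairs with CLOCK or NPAS2 and binds E-box elements, which drive the Per, Cry, Nr1d, Ciart and Dbp genes. PER and CRY proteins and CIART then repress that pair, while the nuclear receptors NR1D1 and NR1D2 (REV-ERB alpha and beta) repress Arntl through ROR elements, where the ROR receptors activate it. In the kidney the clock is known to govern rhythms of sodium and water handling.

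Each of the 10 RNA libraries was the only one of its group. Libraries 7, 8, 9 and 10 all came from cells given 100 uM H2O2 and Wnt3a at 20 ng/mL. Library 7 had scramble siRNA, library 8 siRNA to FoxO1, library 9 siRNA to FoxO3 and library 10 both. Libraries 1 to 6 were cells with buffer, with Wnt3a, with Wnt3a and scramble siRNA, with Wnt3a and both siRNAs, with H2O2, and with H2O2 and Wnt3a. All cells derived from mice of mixed strain (FVB at N2, carrying a floxed TbRII gene) crossed with the Immorto-mouse, whose conditional large T antigen keeps cells dividing until interferon gamma is withdrawn. The labels give neither the hour of harvest, the time from treatment to harvest, nor any step that would set the clocks of the cells in phase.

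Of the targeted genes, Foxo1 stood at 7.94, 3.67, 8.54 and 4.67 FPKM in libraries 7, 8, 9 and 10, lower in both libraries labelled with its siRNA. Foxo3 stood at 19.7, 17.8, 19.9 and 17.4 FPKM, so it was not lower in library 9 than in the scramble library, and in library 10 it was close to library 8, which had no FoxO3 siRNA. The siRNA names below are those of the labels, and every direction in library 9 is one of the library labelled FoxO3 siRNA. The total fragments per library are not known, and weakly expressed genes put the depth of libraries 8 to 10 at 0.883, 0.921 and 0.918 of that of library 7. Of 24 proximal tubule markers 7 were measured, among them Aqp1, Lrp2 and Pax8, while transporters such as Slc22a6 and Slc9a3 were listed at 0. Of 7 distal nephron, 4 endothelial and 6 fibroblast markers, 0 were measured. Of 5 podocyte markers 2 were measured (Wt1 and Synpo), with the list's sum from 25.6 to 32.8 FPKM, and of 5 leukocyte markers 2 (Cd68 and Csf1r), with sums from 7.25 to 7.72 FPKM. Nphs1 and Cd3e were listed at 0. The summed level of the 4 epithelial markers, of which the keratins Krt8 and Krt18 were measured, was 40.0 FPKM in library 9 against 49.5 to 51.8 in the others. The part of these lists in the results was not tested.

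Ratios are log2((a + 1)/(b + 1)) of FPKM, written 9/7 for library 9 over library 7, and a ratio of 0.58 either way (a fold of 1.49) served as the size rule. In 8/7, 0 of 10 clock genes were higher and 0 lower by that rule, where 1.44% and 1.24% of 12006 measured genes were. In 10/7 the counts were again 0 and 0, beside 1.60% and 1.36% of 12062. In 9/7, 1 was higher and 2 were lower, beside 2.23% and 2.30% of 12045. The 3 comparisons share library 7. The median of the 10 ratios was 0.04 in 8/7, -0.49 in 9/7 and -0.07 in 10/7, where the median over all measured genes lay at -0.01, -0.02 and -0.02. Since these contrasts were in view when the genes were chosen, nothing is read from the counts against the background.

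**Figure D1:**
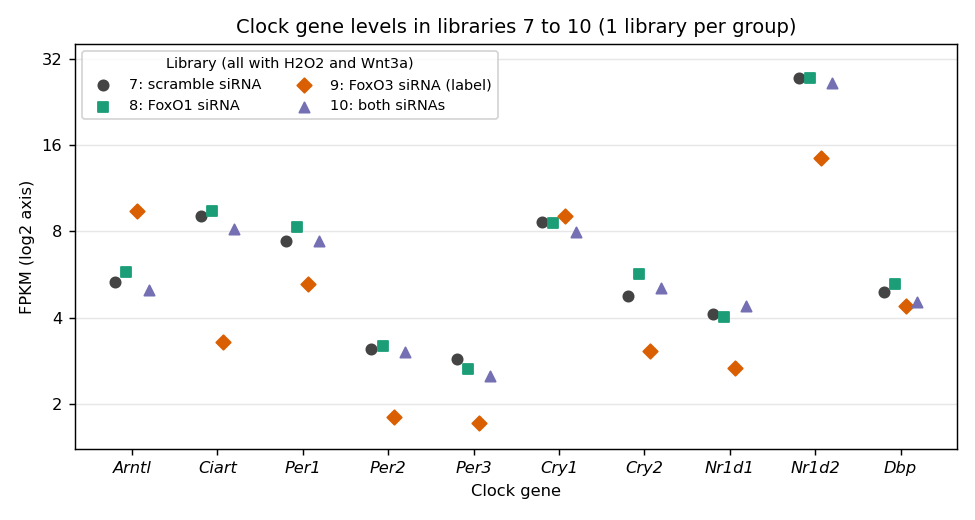
FPKM of each clock gene (log2 axis) in libraries 7 to 10, 1 point per library and no error bars, since each group had 1 library. Library 9 is the lowest of the 4 for 8 genes and the highest for Arntl and Cry1; for Ciart it sits at 3.30 against 8.18 to 9.41.

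Arntl (ENSMUSG00000055116, mm10 chromosome 7, 113207465 to 113314126), the activator of the loop, was the only clock gene higher in library 9 by the size rule. It stood at 5.35, 5.78, 9.43 and 5.01 FPKM in libraries 7, 8, 9 and 10. Among libraries 7, 8 and 10 the highest was 1.15 times the lowest, and library 9 lay at 163% of the highest of them. Its 9/7 ratio was 0.71, against 0.09 in 8/7 and -0.08 in 10/7, and it ranked 178th from the top of the 12045 measured genes. In the authors' deposited table for 9/7 its unadjusted p was 0.0032 and its q 0.691, from a test of 1 library against 1 that says nothing of spread within a condition.

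The partners of ARNTL were flat or absent. Clock stood at 12.0, 12.2, 12.7 and 12.9 FPKM, a 9/7 ratio of 0.08. Npas2, which can take the place of CLOCK, reached no more than 0.02 FPKM in any of the 4 libraries. Arntl2, the paralog of Arntl, stood at 26.7, 28.6, 34.6 and 27.3 FPKM, highest in library 9 with a ratio of 0.36, under the size rule.

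Ciart (ENSMUSG00000038550, chromosome 3, 95878503 to 95882251), a repressor of the ARNTL pair, had the lowest 9/7 ratio of the clock genes. Its level was 9.06, 9.41, 3.30 and 8.18 FPKM in libraries 7, 8, 9 and 10, so that library 9 held 36.4% of the scramble level and 40.3% of the lowest of the other three. The ratio was -1.23 in 9/7, 0.05 in 8/7 and -0.13 in 10/7, and the 9/7 ratio ranked 54th from the bottom. The authors' deposited table gave a p of 0.00315 and a q of 0.691 for 9/7.

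Nr1d2 (REV-ERB beta; ENSMUSG00000021775, chromosome 14, 18204054 to 18239127), which represses Arntl, was the most abundant of the 10 at 27.4, 27.3, 14.4 and 26.4 FPKM. Among libraries 7, 8 and 10 the highest was 1.04 times the lowest, and library 9 held 52.6% of the scramble level, a 9/7 ratio of -0.88. Its p in the authors' deposited table, 0.0002, was the smallest of the clock genes, with a q of 0.112. Nr1d1 (REV-ERB alpha), its paralog, stood at 4.13, 4.01, 2.68 and 4.41 FPKM, with a ratio of -0.48. Library 9 was again the lowest, at 66.9% of the next library up. Nr1d1 shares 8.55% of its exonic bases with Thra, which is transcribed the other way; the sources used here do not say if counting used strand, so its level was uncertain.

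The Per genes, whose proteins form the repressing complex with the cryptochromes, were all lowest in library 9. Per1 stood at 7.42, 8.28, 5.23 and 7.39 FPKM, a 9/7 ratio of -0.43. Per2 stood at 3.13, 3.20, 1.80 and 3.05 FPKM, a ratio of -0.56, just short of the size rule. Per3 stood at 2.88, 2.65, 1.72 and 2.51 FPKM, a ratio of -0.51. Library 9 held 70.6%, 57.7% and 59.8% of the scramble level for the 3 genes, while libraries 7, 8 and 10 lay within 1.15-fold of each other in every one. The authors' deposited table gave unadjusted p-values of 0.0471 for Per1, 0.0143 for Per2 and 0.240 for Per3, all with q of 0.999.

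The cryptochromes, the main repressors of the ARNTL pair, parted from each other. Cry2 stood at 4.79, 5.67, 3.06 and 5.09 FPKM, with 63.9% of the scramble level in library 9 and a ratio of -0.51. Cry1 stood at 8.61, 8.54, 9.07 and 7.96 FPKM, with a ratio of 0.07. Library 9 was the lowest of the 4 for Cry2 and the highest for Cry1, where it held 105% of the scramble level. Cry1 was the only one of the 8 repressors that was not lowest in library 9.

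Dbp, a PAR bZIP factor that binds D-box elements and is a widely used readout of E-box activity, differed little. It stood at 4.93, 5.24, 4.38 and 4.56 FPKM, a 9/7 ratio of -0.14, and libraries 9 and 10 lay closer together than libraries 7 and 8. Dbp shares 18.0% of its exonic bases with Sphk2 on the opposite strand and was uncertain for that reason. Tef, its relative, stood at 29.4, 28.4, 22.5 and 29.9 FPKM, with a ratio of -0.37, and Hlf, the third of the family, was not measured.

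**Figure D2:**
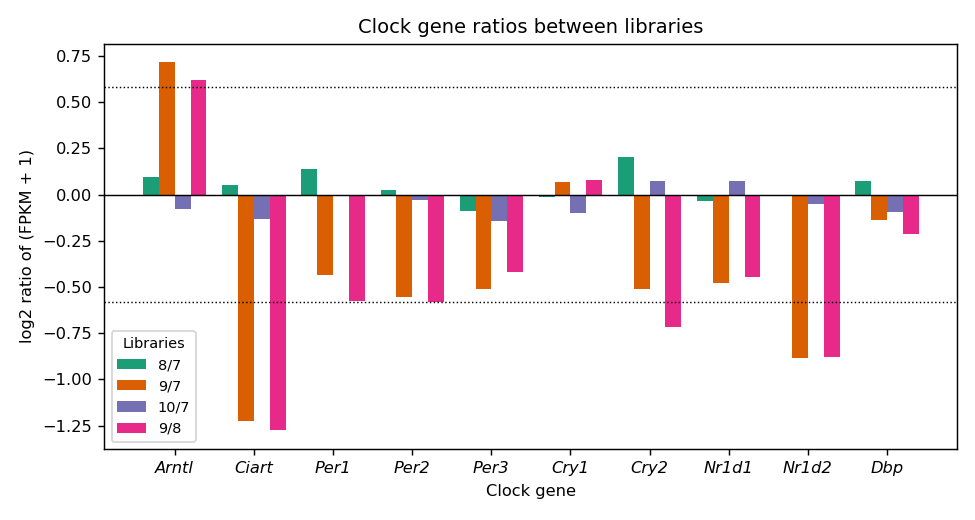
log2 ratio of (FPKM + 1) for each clock gene in 8/7, 9/7, 10/7 and 9/8, with the size rule of 0.58 dotted and no error bars, since each bar is 1 library over 1. The bars of 8/7 and 10/7 run from -0.14 to 0.21, and those of 9/7 from -1.23 to 0.71.

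As a yardstick, the robust spread (scaled median absolute deviation) of the 9/7 ratios was 0.18 among 5616 genes with FPKM from 5 to 30, and 0.26 among 1529 genes from 2 to 5. The spread of the stronger group was 0.14 in both 8/7 and 10/7, so library 9 differed from the scramble library more widely over all genes too. This is a spread between genes, not between replicates. The 9/7 ratios of Cry1 and Dbp lay within it, and those of the other clock genes lay past it. The share of all genes past it was not counted, and the clock genes were chosen with these ratios in view. Nothing is therefore read from their place against this spread.

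The pseudocount bore on the count. A pseudocount of 1 FPKM holds down ratios of weak genes, and 5 of the clock genes lay between 2 and 5 FPKM in the scramble library. With a pseudocount of 0.1 FPKM, 6 clock genes were lower by 0.58 in 9/7 and 1 was higher, beside 3.92% and 3.80% of all measured genes. Per2 then stood at -0.76, Per3 at -0.71, Cry2 at -0.63 and Nr1d1 at -0.60, and Per1 at -0.50 was short of the rule. In the authors' deposited tables the unadjusted p was under 0.05 for 6 of 10 clock genes in 9/7, beside 2.40% of 13389 tested genes. It was so for 0 in 8/7 and 0 in 10/7, beside 1.23% and 1.50%. None of the 10 had a q at or under 0.05 in any of the authors' deposited tables. These p-values come from the same libraries whose ratios were in view when the clock genes were chosen. Nothing is therefore read from the counts in this paragraph against the shares of all genes.

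**Figure D3:**
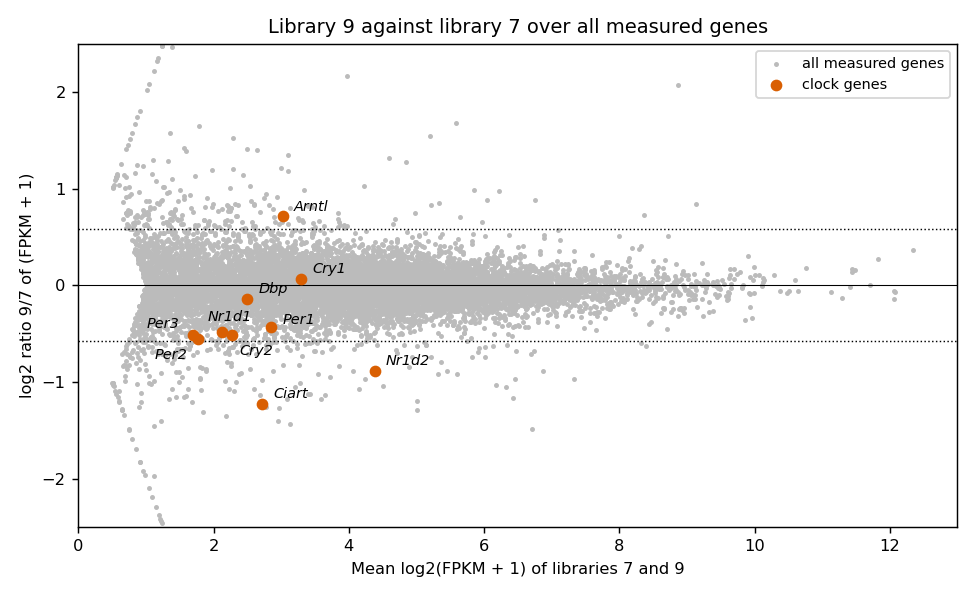
The 9/7 log2 ratio of (FPKM + 1) against the mean log2(FPKM + 1) of both libraries for all 12045 measured genes (grey; 44 lie beyond the axis limit of 2.5) with the clock genes in orange. Arntl lies above the dotted size rule of 0.58, Ciart and Nr1d2 lie below it, and 5 repressors lie just inside it.

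Library 9 was also set against the FoxO1 siRNA library, a comparison that shares library 9 with the one above. In 9/8, 1 clock gene was higher, Arntl at 0.62, and 4 were lower, beside 2.42% and 2.72% of 12046 genes. These 4 were Ciart at -1.28, Nr1d2 at -0.88, Cry2 at -0.72 and Per2 at -0.58, and Per1 at -0.57 was just short. Over libraries 7 to 10, library 9 was the lowest for 8 of 10 clock genes and the highest for the other 2. It was the lowest for 32.5% and the highest for 28.5% of all 12352 measured genes. Cry1 and Dbp are counted here though library 9 lay at 105% and 96.2% of the nearest other library. The genes were chosen with ratios of library 9 in view, and its place was counted after its values were seen. Nothing is therefore read from the counts in 9/8 or from these places against the shares of all genes. The level in library 10 was nearer to those in libraries 7 and 8 than to that in library 9 for 9 of the clock genes. For Dbp it was nearest to library 9, at 4.56 against 4.38 FPKM.

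The arms of the loop were then compared. In 9/7 the median ratio was 0.40 for the 2 measured activators and -0.51 for the 8 repressors. The activators were Arntl at 0.71 and Clock at 0.08, so their median describes neither gene. Arntl2 was not counted among the activators. Of the 8 repressors, 7 were below 0 in 9/7 and 7 in 9/8, against 6 in 10/7 and 4 in 8/7. The share of all genes below 0 was not counted, so nothing is read from these signs. The activators minus the repressors came to 0.91 in 9/7 and 0.92 in 9/8, against 0.05 in both 8/7 and 10/7. With the unmeasured Npas2 counted among the activators the 9/7 difference was 0.59. Arntl and the repressors were chosen with such ratios in view, so the difference between the arms is a description only.

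Ratios of 2 genes within a library do not depend on how the libraries were scaled. The FPKM of Arntl over that of Nr1d2 was 0.196, 0.211, 0.655 and 0.190 in libraries 7, 8, 9 and 10. The FPKM of Arntl over that of Ciart was 0.591, 0.614, 2.86 and 0.612. Library 9 was thus the only one of the 4 in which Arntl was the more abundant of that pair. Against its flat partner Clock, Arntl differed less, with FPKM ratios of 0.446, 0.473, 0.742 and 0.390 in libraries 7, 8, 9 and 10.

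The order of the levels in FPKM was nearly the same in libraries 7, 8 and 10, with Nr1d2 first, then Ciart, Cry1 and Per1, and with Nr1d1, Per2 and Per3 last. Arntl, Dbp and Cry2 lay between, and their order differed among those libraries. In library 9 Arntl held rank 2 in place of rank 5 in the scramble library, and Ciart rank 6 in place of rank 2. Without replicates it cannot be said which neighbours in this order differ.

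RefSeq promoter windows of GRCm38.p6, running from 250 bases before to 50 after a transcription start, were found for 9 of the 10 clock genes; Per2 had none. Short motifs were searched on both strands: the E-box CACGTG, the D-box TTANGTAA, the ROR element TAGGTCA, the cAMP element TGACGTCA and the forkhead element GTAAACA, which FoxO proteins bind. Among 32851 windows they occurred in 7.15%, 2.32%, 2.61%, 1.79% and 3.65%. The windows of Ciart, Per3 and Arntl are shown for the matches they hold beside their difference in library 9, and that of Cry1 as a repressor whose level hardly differed. Matches are in capitals.
Ciart (chr3:95882179-95882478, minus strand): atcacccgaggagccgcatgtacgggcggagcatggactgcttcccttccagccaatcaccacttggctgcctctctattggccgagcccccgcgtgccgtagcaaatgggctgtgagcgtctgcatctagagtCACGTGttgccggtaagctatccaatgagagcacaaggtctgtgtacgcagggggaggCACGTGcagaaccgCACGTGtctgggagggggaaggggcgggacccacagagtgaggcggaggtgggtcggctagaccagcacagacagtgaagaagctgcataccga
Per3 (chr4:151044616-151044915, minus strand): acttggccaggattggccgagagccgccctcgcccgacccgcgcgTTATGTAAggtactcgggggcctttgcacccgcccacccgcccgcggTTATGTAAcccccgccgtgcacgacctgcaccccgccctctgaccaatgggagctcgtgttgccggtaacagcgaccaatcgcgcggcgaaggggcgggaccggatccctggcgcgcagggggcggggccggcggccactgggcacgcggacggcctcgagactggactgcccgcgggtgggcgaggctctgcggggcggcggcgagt
Cry1 (chr10:85185005-85185304, minus strand): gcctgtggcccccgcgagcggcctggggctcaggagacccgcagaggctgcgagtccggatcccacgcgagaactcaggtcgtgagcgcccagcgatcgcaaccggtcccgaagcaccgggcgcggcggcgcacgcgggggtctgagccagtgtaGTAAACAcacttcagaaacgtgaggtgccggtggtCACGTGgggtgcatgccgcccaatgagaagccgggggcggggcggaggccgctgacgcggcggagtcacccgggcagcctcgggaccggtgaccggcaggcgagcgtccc
Arntl (chr7:113207261-113207560, plus strand): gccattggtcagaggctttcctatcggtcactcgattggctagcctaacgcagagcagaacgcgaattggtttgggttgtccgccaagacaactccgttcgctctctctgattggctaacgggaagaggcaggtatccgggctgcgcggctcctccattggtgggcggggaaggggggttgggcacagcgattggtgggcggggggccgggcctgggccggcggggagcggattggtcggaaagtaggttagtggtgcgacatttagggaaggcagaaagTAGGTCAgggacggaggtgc

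The window of Ciart, the clock gene with the lowest 9/7 ratio, held 3 E-boxes, with first bases at positions -116, -58 and -44 from the start. That of Per3 held 2 D-boxes, with first bases at -205 and -158. An E-box also stood in 1 of 2 windows of Per1 and in that of Cry1, so 3 of the 9 genes had one. Cry1 was alone among the 9 in holding a forkhead element, at -95. The second of 2 windows of Arntl held a ROR element inside the transcribed part, from base 31 to 37. The windows of Cry2, Nr1d1, Nr1d2 and Dbp held none of the 5 motifs, and the cAMP element was in none of the 11 windows. No 2 matches overlapped. The shares given for 32851 windows are of windows, not of genes. These matches describe the letters of short windows only. They say nothing of motifs outside the windows or of binding in these cells.

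**Figure D4:**
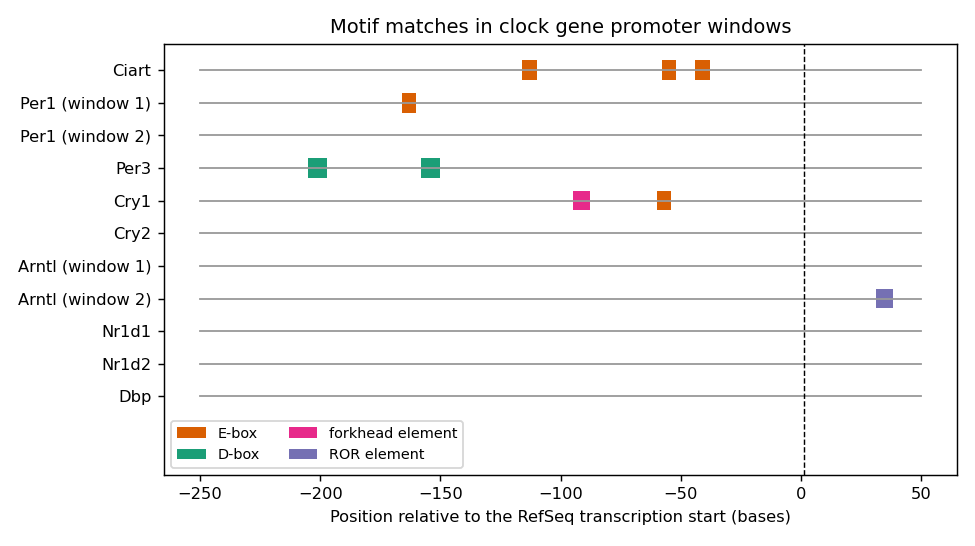
Motif matches along the 11 RefSeq promoter windows of 9 clock genes, in bases from the transcription start (dashed line), each bar the extent of 1 match. Ciart carries 3 E-boxes close to its start and Per3 carries 2 D-boxes, and 4 genes have no match.

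Further genes of the pathway, 62 symbols beside Arntl and Dbp in 9 lists, were counted next. Of these, 60 were in the tables and 47 were measured; Noct and Gm129 are other names of Ccrn4l and Ciart. In 8/7, 0 of 47 passed 0.58 either way, beside 1.44% higher and 1.24% lower of all measured genes, and in 10/7 again 0, beside 1.60% and 1.36%. In 9/7, 2 were higher and 2 lower, beside 2.23% and 2.30% of all measured genes, and their median was -0.03, beside -0.02. With so few genes listed, these shares amount to no more than a gene or so each way, and nothing is read from the counts.

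Bhlhe40 (DEC1), an E-box repressor, was 1 of the 2 lower genes. It stood at 53.7, 55.1, 28.0 and 43.6 FPKM in libraries 7, 8, 9 and 10, a 9/7 ratio of -0.92, with library 10 between library 9 and the others at a 10/7 ratio of -0.29. Bhlhe41 (DEC2), its paralog, stood at 15.4, 17.5, 18.4 and 20.4 FPKM and was lowest in the scramble library. Fbxl21, an F-box protein that targets cryptochromes, was the other lower gene, at 1.43, 1.47, 0.612 and 1.48 FPKM with a ratio of -0.59.

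The 2 higher genes were Fos and Egr1, immediate early transcription factors. Fos stood at 1.25, 1.46, 2.62 and 1.58 FPKM, a 9/7 ratio of 0.68. Egr1 stood at 23.3, 27.0, 39.7 and 25.2 FPKM, a ratio of 0.75. Both belong to the list of genes that glucocorticoids or cAMP signals induce, as they do Per1; the list's 11 measured genes had a 9/7 median of -0.01 and 0 lower by the rule. The nearest to it was Nr4a2, an orphan nuclear receptor, at 2.53, 1.66, 1.51 and 1.90 FPKM with a ratio of -0.49, highest in the scramble library.

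Rora, a receptor that activates Arntl, was weak at 1.36, 1.06, 1.92 and 1.20 FPKM, with a 9/7 ratio of 0.31. Nfil3, a repressor at D-boxes, stood at 9.99, 10.4, 10.7 and 9.03 FPKM, with a ratio of 0.09. The casein kinases Csnk1d, Csnk1e and Csnk1a1, which phosphorylate PER, and the 6 partners of the PER complex had 9/7 ratios from -0.25 to 0.06. Those furthest from 0 among the partners were the RNA helicase Ddx5 at -0.25, the splicing factor Sfpq at -0.16 and Timeless at -0.07. Ciart, which the list of clock-driven outputs holds under its other name Gm129, stood at -1.23 in 9/7 and -1.28 in 9/8. It was left out of the counts of that list. Of the 13 other measured clock-driven outputs, such as the cell cycle kinase Wee1 and the NAD-producing enzyme Nampt, 0 passed the rule in any of 8/7, 9/7, 10/7 and 9/8. The 9/7 median of these 13 was 0.0048. At the shares of all genes given above, fewer than 1 of 13 would pass in each comparison, so nothing is read from that 0. Those furthest from 0 in 9/7 were the deubiquitinase Usp2 at 0.29, the transcription factor Klf10 at -0.20 and the deacetylase Sirt1 at -0.20.

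Of 8 renal outputs of the clock only 3 were measured. Atp1b1, the beta subunit of the sodium pump, stood at 17.8, 13.1, 23.9 and 17.3 FPKM, a ratio of 0.82 in 9/8 and 0.40 in 9/7. Edn1, endothelin-1, stood at 5.36, 5.61, 3.76 and 4.01 FPKM, a 9/7 ratio of -0.42. Sgk1, a kinase that acts on sodium transport, stood at 13.3 FPKM in the scramble library and from 9.67 to 10.7 in the other three. Edn1 was also in the list that the authors selected on libraries 1 and 2, at 1.13 FPKM in library 1 and 3.85 in library 2, and at 0.651 in library 5 and 4.47 in library 6. The other pathway genes in the selected lists (Hlf, Rorb and Slc5a2) were below 1 FPKM in every library listed.

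**Figure D5:**
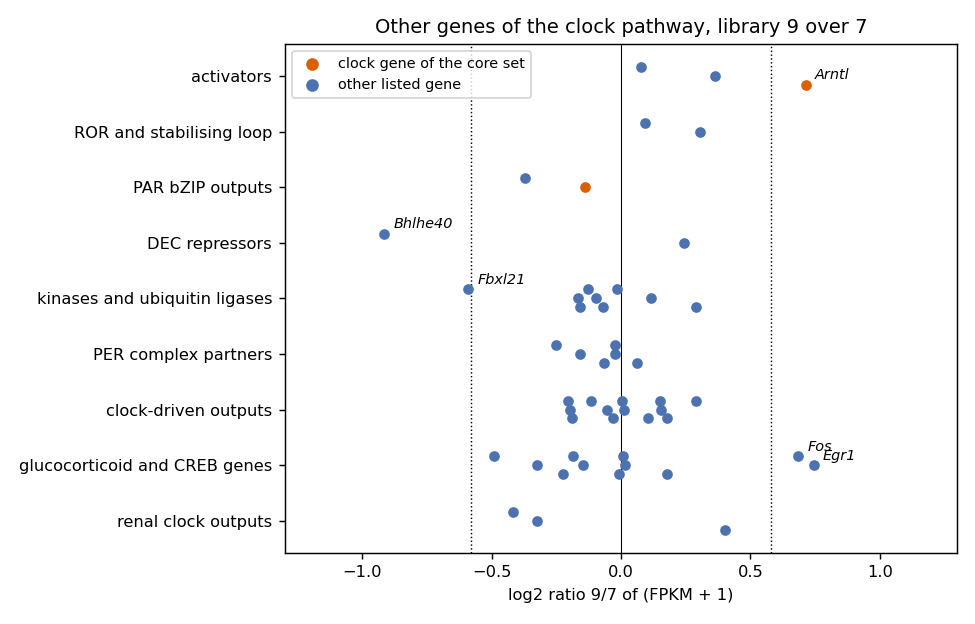
9/7 log2 ratio of (FPKM + 1), 1 point per measured gene, by list of the clock pathway, with the size rule of 0.58 dotted. Arntl, Fos and Egr1 lie above the rule and Bhlhe40 and Fbxl21 below it, while the clock-driven outputs, plotted without Ciart, lie around 0.

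The genes most like Ciart and Arntl were found by the Euclidean distance over the ratios 8/7, 9/7 and 10/7, from 4 libraries, among 8988 genes of at least 5 FPKM in 1 of them. Nearest to Ciart was Trib3, a stress-induced pseudokinase, at a distance of 0.13, and Adgrg1, Cth and Aldh1l2 were also among the 5 nearest, at up to 0.35. Trib3 stood at 11.1, 12.2, 4.02 and 10.9 FPKM. Bhlhe40 and Nr1d2 followed at ranks 7 and 8, at 0.35 and 0.36. The other clock genes among the 8988 lay further off, Cry2 at rank 123, Per1 at 173, Dbp at 1750, Cry1 at 5998 and Arntl at 8935. Nearest to Arntl were Crebl2 at 0.09, Slc25a42, Clic5, Cxcl5 and Ifit3b, at up to 0.21, with Crebl2 at 6.59, 6.94, 11.2 and 6.56 FPKM. With a pseudocount of 0.1 FPKM, 3 of each 5 were shared.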

How the data were processed

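RNA sequencing reads of 100 nt were processed with TopHat2, Cufflinks and Cuffdiff on mm10, per the submitters' processing notes. Their versions and settings, the annotation and any use of strand are not stated in those notes. Values of FPKM were deposited for libraries 8, 9 and 10 against library 7 in 3 tables of 46509 genes, and for selected genes of libraries 1 to 7 and 10 in 2 lists. The deposited p-values and q-values of Cuffdiff, per the file headers, were copied as the authors' own.

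Library 7 was scaled slightly differently in each table. The printed levels of libraries 8 and 10 were multiplied by 1.002 and 0.9988 to match the 9/7 table, also for 9/8; ratios against library 7 were formed within a table, with a pseudocount of 1 FPKM. Genes that reached 1 FPKM in either library of a comparison count as measured. Conditions were not tested against each other, since each had a single library. Relative depth was read from the commonest ratio among genes under 0.3 FPKM; no counting interval was computed, and the depth itself is unknown.

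All 10 clock genes are named. Genes of 9 pathway lists are named where they passed 0.58 in any of 8/7, 9/7, 10/7 and 9/8, and in a list where none did, the 3 measured genes furthest from 0 in 9/7, or all of fewer. Others (Clock, Npas2, Arntl2, Hlf, Bhlhe41, the casein kinases, Wee1, Nampt, Nr4a2, Edn1, Sgk1) were chosen after their values were seen. Neighbours in pattern were the 5 nearest with 1 symbol and status OK, without small RNA, predicted, Rik, histone and mitochondrial symbols. 1 neighbour of Ciart is not reported here. The members and lists were chosen with earlier results of these data known, and the place of library 9 among 4 was counted after its values were seen. Exon overlaps and gene positions were taken from GENCODE M21, and promoter sequences from RefSeq. Python 3.11.15 and pandas 2.3.3 were used.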

Additional observations from a re-analysis of the deposited data

How the results depend on the processing

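Each count, median, arm difference and single ratio was recomputed with pseudocounts of 0.1 and 0.01 FPKM, centring on the median gene and upper quartile scaling, and, except for single ratios, a filter at 5 FPKM and no filter. The count of clock genes lower in 9/7 was 2 as reported and 6 with either smaller pseudocount, which by construction holds weak ratios down less. With a size rule of 1 in place of 0.58 the count was 1 lower and 0 higher in 9/7, and 1 lower and 0 higher in 9/8. The activators minus the repressors, 0.91 in 9/7 and 0.92 in 9/8, came to 1.11 and 1.10 with a pseudocount of 0.1, to 1.14 and 1.12 with 0.01, and to 0.59 and 0.63 with no filter, which adds Npas2 near 0. Of 160 recomputed ratios of single clock genes, 149 moved by less than the robust spread of the comparison and 11 moved further, those of Ciart, Per2 and Per3 in 9/7 and 9/8, each away from 0 under a smaller pseudocount. No ratio past 0.58 changed sign, and centring and scaling moved no count of clock genes by over 1.5 times. Among other pathway genes, counted with the same alternatives chosen after seeing the data, 1 in place of 0 passed in 8/7 and 6 in place of 3 in 9/8 with a pseudocount of 0.1, and 2 in place of 4 in 9/7 with a filter at 5 FPKM. With a size rule of 1, 0 of them passed in 9/7, in place of 4, and 0 in 9/8, in place of 3. No paired analysis was possible because each group has 1 library. Without total counts, the counting error of weak genes such as Fbxl21, Fos and Rora is unknown.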
